A study of Homo sapiens with 6 samples.

Results

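The axon guidance genes were examined in cultured human cells that carry the label DLD-1, the name of an epithelial line from a colorectal adenocarcinoma, with and without overexpression of the cytokine receptor gene TNFRSF12A. The set holds the 68 genes of 19395 in the count table whose symbols name an ephrin, an Eph receptor, a semaphorin, a plexin, a Slit, a Robo, a netrin or a UNC5 protein. Of these, 45 had enough counts to be tested and 23 did not, 5 of which had no count in any library. Membership went by symbol alone, so it also took in UNC50, a Golgi membrane protein that is not a guidance receptor, and UNC5CL, a death domain protein related to the UNC5 receptors.

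Polyadenylated RNA was sequenced from 3 libraries labelled oeControl and 3 labelled oeTNFRSF12A. The oeTNFRSF12A cells carry an inducible TNFRSF12A and had received doxycycline at 0.1 µg/mL for 48 h, while the characteristics of the oeControl cells give the genotype WT and no treatment. Overexpression and doxycycline therefore cannot be told apart, and the labels say neither whether the controls carry a construct nor whether the overexpressing cells are 1 clone. Whether the replicates were separate cultures is not labelled. P-values here therefore reflect only how these 6 libraries spread, and that spread may be technical.

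The libraries held 18154839 to 18406885 counts, of which 0.244% to 0.257% fell on the 68 genes. TNFRSF12A itself had 404, 365 and 423 counts in the controls and 1203, 1133 and 1305 in the oeTNFRSF12A libraries. The marker genes went against the label of a colon epithelial cell. Markers of colon epithelium were largely missing: 12 of 15 stayed under 1 CPM (counts per 1000000, on TMM-scaled library sizes) in all 6 libraries, CEACAM5, CDX1, MUC2 and FABP1 were at 0, and EPCAM had 0 to 4 counts per library. KRT8, KRT18 and CDH1 were the 3 above that level, and the 2 keratins were well expressed. KRT8 had 2914 to 3153 and KRT18 2684 to 2924 counts per library. CDH1 was itself lower in the oeTNFRSF12A libraries (303, 290 and 332 counts against 161, 160 and 176). On the log2 scale KRT8 was slightly lower (-0.08), and KRT18 was not called (0.06). Several mesenchymal markers were high, with VIM at 75138 to 86958 counts and FN1 at 20567 to 27381 counts per library. Others were not: PDGFRB (4 to 13 counts) and THY1 (0 to 2) were the 2 of 12 under 1 CPM in all libraries. SNAI2 had 11 to 21 counts. Of 12 such markers 10 could be tested, and they moved both ways: VIM (0.13), CDH2 (0.13) and COL3A1 (0.23) rose on the log2 scale, and COL1A1 (-0.85), FN1 (-0.37), COL1A2 (-0.35) and TWIST1 (-0.25) fell. Their summed level was 7534 to 7892 CPM in controls and 7192 to 7526 CPM in oeTNFRSF12A libraries. Of 10 endothelial markers 9 stayed under 1 CPM in all libraries, as did 7 of 10 neuronal and 6 of 8 leukocyte markers. The part of any of these in the results below was not tested.

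Guidance proteins steer growing axons and migrating cells by attracting or repelling them, and are also used in epithelia, vessels and tumours. Ephrins bind Eph receptor tyrosine kinases on neighbouring cells and can signal back into the cell that carries them. Semaphorins bind plexins, the secreted class 3 members mostly through neuropilin co-receptors. Slits bind Robo receptors, and netrins bind DCC, neogenin and UNC5 receptors.

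At a threshold of 0.05 on the adjusted p, 24 of the 45 tested genes were called different (53.3%), against 42.3% of all 12758 genes tested. The direction was uneven. In the oeTNFRSF12A libraries 7 genes were higher (15.6%, against 21.2% of all genes) and 17 lower (37.8%, against 21.1%). A change of at least 1.5-fold was found in 11 called genes, 3 higher and 8 lower (24.4%, against 5.7% of all genes, which were 1.44% higher and 4.26% lower). The median log2 fold change of the tested genes was -0.20 and that of all genes 0.0032, and the median size was 0.27 against 0.14. These shares describe the 45 genes that passed the filter on low counts, and no list test was made. Of the 45, 42 reached the filter's level of 0.548 CPM in all 6 libraries, while ROBO4, PLXNC1 and SEMA7A did not. ROBO4 passed only through the oeTNFRSF12A libraries, where it was high. It is among the 7 genes called higher and the 3 higher by at least 1.5-fold, and is no support for these counts or their shares. Throughout, fold changes and adjusted p-values come from the quasi-likelihood test of edgeR, adjusted by Benjamini-Hochberg over all tested genes.

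**Figure D1:**
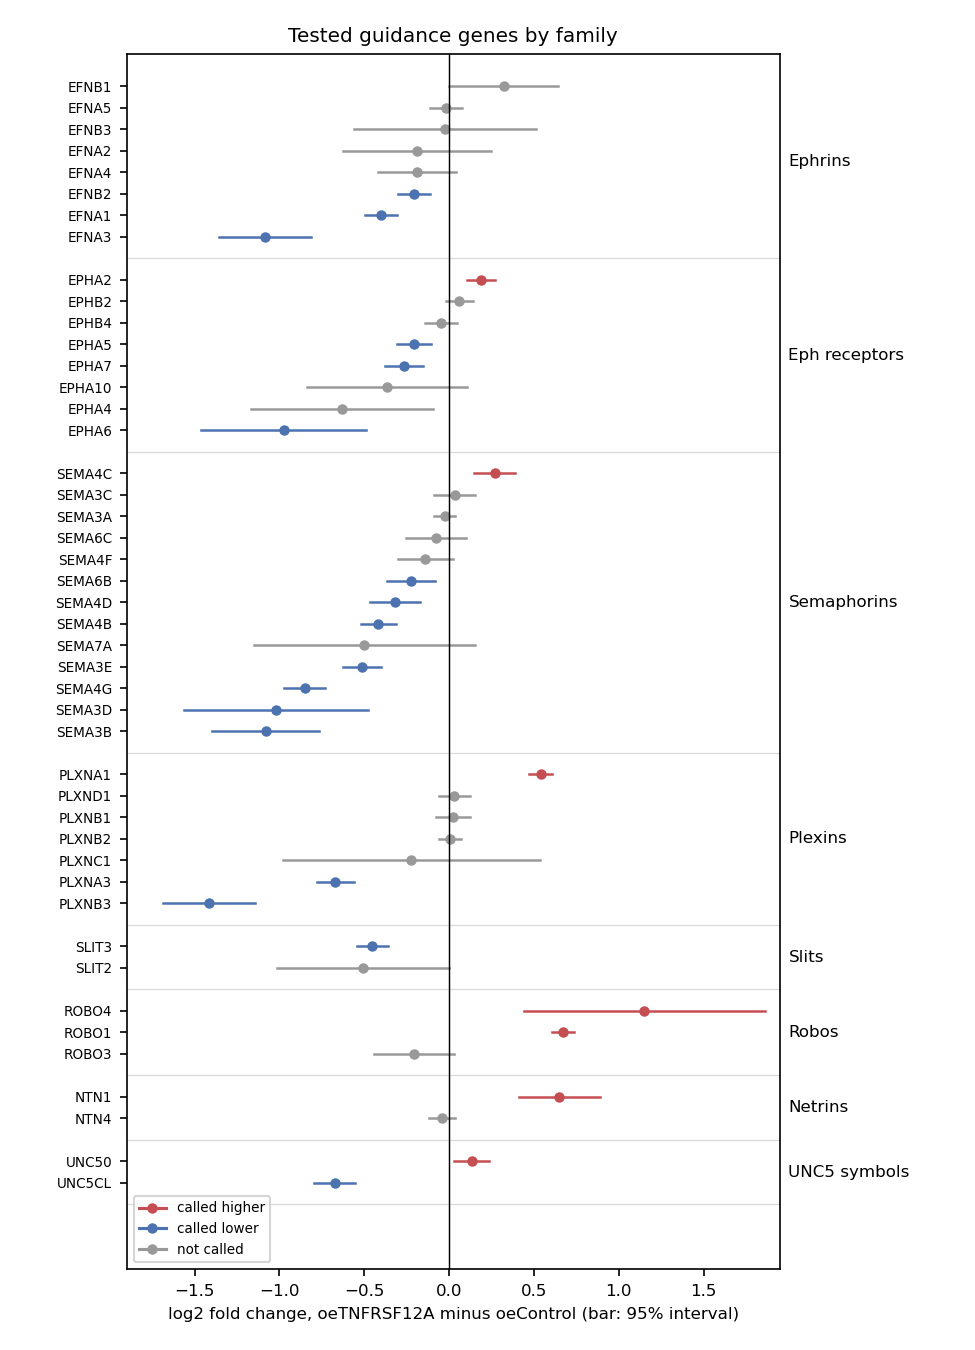
Log2 fold change (x axis, oeTNFRSF12A minus oeControl) of the 45 tested genes, one row per gene grouped by family, with 95% intervals as bars. Colours mark genes called higher (7), called lower (17) or not called (21); most called ephrins and semaphorins lie to the left of 0, and ROBO1, ROBO4, PLXNA1 and NTN1 lie farthest to the right.

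ROBO1 had the lowest p of the set. It encodes the main Slit receptor of many epithelial and neural tissues (ENSG00000169855.19, minus strand of chromosome 3, 78597240 to 79767815, GRCh38, GENCODE release 29). The controls held 3383, 3259 and 3372 counts and the oeTNFRSF12A libraries 5442, 5467 and 5301, so the groups lie far apart and each is tight. This is 185 ± 3.83 against 294 ± 6.86 CPM (mean ± SD, n = 3 per group), a log2 fold change of 0.67 (SE 0.03, adjusted p = 1.48e-14). In bulk RNA a change in the share of cells that express a gene and a change in RNA per cell cannot be told apart.

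The promoter of ROBO1 is shown because it is the rise with the lowest p; those of PLXNA1, PLXNB3 and EFNA3 follow where these genes are described. Each sequence is from RefSeq (GRCh38.p14) and runs 5′ to 3′ on the gene's strand. It spans 250 bases before to 50 bases after the most upstream of the gene's listed starts, which need not be its main start. Which start these cells use was not measured. Capitals mark matches, on either strand, to the hypoxia response cores ACGTG and GCGTG, the E-box CACGTG, the AP-1 motif TGANTCA or the NF-kB consensus.
ROBO1 (chr3:79767949-79768248, minus strand): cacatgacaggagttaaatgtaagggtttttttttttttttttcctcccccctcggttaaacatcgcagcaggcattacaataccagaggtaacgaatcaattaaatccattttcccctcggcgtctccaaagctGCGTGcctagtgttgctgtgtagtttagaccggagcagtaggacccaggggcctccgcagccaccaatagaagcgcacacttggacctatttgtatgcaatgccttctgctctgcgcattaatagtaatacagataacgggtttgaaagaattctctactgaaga
It holds GCGTG at -115. This window lies wholly upstream of the GENCODE span given above, so the start it counts from is outside that span.

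Its ligand SLIT3, a secreted protein (ENSG00000184347.14), moved the other way. SLIT3 had 1829, 1864 and 1735 counts in the controls and 1331, 1420 and 1284 in the oeTNFRSF12A libraries, with no overlap. Its mean was 100.1 ± 3.98 CPM in controls and 73.1 ± 4.12 CPM in oeTNFRSF12A libraries (log2 fold change -0.45, SE 0.04, adjusted p = 8.84e-09). Per kilobase of the longest annotated coding transcript, ROBO1 stood at 2.39, 2.26 and 2.52 times SLIT3 in the control libraries and at 5.29, 4.98 and 5.34 times in the oeTNFRSF12A libraries.

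Among the other Slit and Robo genes, SLIT2 had 16 to 44 counts per library and was not called (log2 fold change -0.51, 95% interval -1.02 to -0.0018, adjusted p = 0.0991). SLIT1 had 0 to 5 counts and ROBO2 5 to 11, and neither could be tested. ROBO3, a divergent Robo known from midline crossing of axons, was at -0.20 (interval -0.44 to 0.03) without a call.

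ROBO4, the Robo of endothelial cells, was called higher on few counts, and passed the filter only through the oeTNFRSF12A libraries, so its call is no support for the count of genes that rose. Its controls had 7, 9 and 13 counts and its oeTNFRSF12A libraries 14, 20 and 32, adjacent at 13 and 14. The log2 fold change was 1.15 (SE 0.34, adjusted p = 0.00927), and the call was lost without oeControl replicate 1 (0.97, adjusted p = 0.0515) or without oeTNFRSF12A replicate 3 (0.79, adjusted p = 0.0906). ROBO4 exons share 744 bp with the antisense model AP003501.1 and 448 bp with AP003501.2, so reads of these genes are uncertain where strand was not used. The endothelial markers VWF, TEK and FLT1 were at 0 in all libraries, and PECAM1 fell from 28, 20 and 27 counts to 16, 16 and 9 (-0.89, adjusted p = 0.0132). The summed level of the 10 endothelial markers was 1.94 to 2.55 CPM in controls and 1.46 to 1.86 CPM in oeTNFRSF12A libraries. PECAM1 was the 1 marker of these 10 with enough counts to test, and the part of this sum in the ROBO4 values was not tested.

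Of 7 plexins tested 1 rose, 2 fell and 4 were not called, a share called of 42.9% beside 42.3% of all genes, so the results here are those of single genes. PLXNA1, a receptor for class 3 semaphorins together with neuropilins (ENSG00000114554.11, plus strand of chromosome 3, 126988594 to 127037392), had 2579, 2655 and 2593 counts in the controls and 3813, 3777 and 4000 in the oeTNFRSF12A libraries. It rose from 144 ± 2.28 to 209.9 ± 5.07 CPM, and the groups did not overlap (log2 fold change 0.54, SE 0.03, adjusted p = 1.68e-12).

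The promoter of PLXNA1, the rise with the next lowest p, is shown with the same marking. Its window too lies wholly upstream of the GENCODE span given for the gene, so the RefSeq start it counts from is outside that span.
PLXNA1 (chr3:126982865-126983164, plus strand): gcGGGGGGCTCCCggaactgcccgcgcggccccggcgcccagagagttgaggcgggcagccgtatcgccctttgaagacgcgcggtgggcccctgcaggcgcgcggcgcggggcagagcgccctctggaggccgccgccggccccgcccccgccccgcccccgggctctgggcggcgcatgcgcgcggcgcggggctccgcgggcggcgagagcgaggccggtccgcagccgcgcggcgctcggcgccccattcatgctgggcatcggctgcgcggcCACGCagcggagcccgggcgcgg
It holds overlapping matches to the NF-kB consensus at -248 and -247 and the reverse complement of GCGTG at 28.

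PLXNA3, its close relative on the X chromosome (ENSG00000130827.6, plus strand, 154458281 to 154477779), fell. It had 873, 937 and 942 counts in the controls and 597, 606 and 555 in the oeTNFRSF12A libraries, all of the latter below the former. The log2 fold change was -0.67 (SE 0.05, adjusted p = 2e-10). PLXNA1 was 3.55, 3.40 and 3.31 times PLXNA3 per kilobase in the control libraries and 7.67, 7.48 and 8.65 times in the others. PLXNA1 made up 77.3% ± 0.63 of the summed class A plexin level per kilobase in controls and 88.8% ± 0.77 in oeTNFRSF12A libraries (mean ± SD, n = 3). PLXNA2 had 1 count in each library and PLXNA4 0 to 2.

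PLXNB3, a class B plexin that binds SEMA5A, showed the largest fall among the tested genes (ENSG00000198753.11, plus strand of chromosome X, 153764196 to 153779346). The controls held 132, 137 and 130 counts and the oeTNFRSF12A libraries 48, 45 and 59, so even the highest oeTNFRSF12A library lay far below the lowest control. The level was 7.35 ± 0.21 against 2.75 ± 0.38 CPM, 2.67-fold lower (log2 fold change -1.42, SE 0.13, adjusted p = 3.79e-09). PLXNB3 shares 1432 of its 7007 exon bases with SRPK3 on the same strand, which had 1 to 12 counts per library. Its ligand gene SEMA5A had 0 counts in the controls and 0, 3 and 2 in the oeTNFRSF12A libraries.

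The promoter of PLXNB3 is shown for that fall.
PLXNB3 (chrX:153763999-153764298, plus strand): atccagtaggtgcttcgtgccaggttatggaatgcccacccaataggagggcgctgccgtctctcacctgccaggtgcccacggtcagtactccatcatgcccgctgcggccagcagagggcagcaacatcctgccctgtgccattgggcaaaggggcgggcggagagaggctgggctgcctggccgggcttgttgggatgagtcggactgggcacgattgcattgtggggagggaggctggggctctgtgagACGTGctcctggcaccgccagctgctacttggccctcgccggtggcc
It holds ACGTG at base 4 after the start.

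The more abundant class B and D plexins were not called. PLXNB2 had 4130 to 4431 counts per library and a log2 fold change of 0.0040 (95% interval -0.06 to 0.07). PLXNB1, the SEMA4D receptor, was at 0.02 (interval -0.08 to 0.12), and PLXND1, the SEMA3E receptor, at 0.03 (interval -0.06 to 0.12). These intervals bound the changes but do not show that the levels were equal. PLXNC1, the SEMA7A receptor, had 7 to 12 counts per library and an interval of -0.98 to 0.54.

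**Figure D2:**
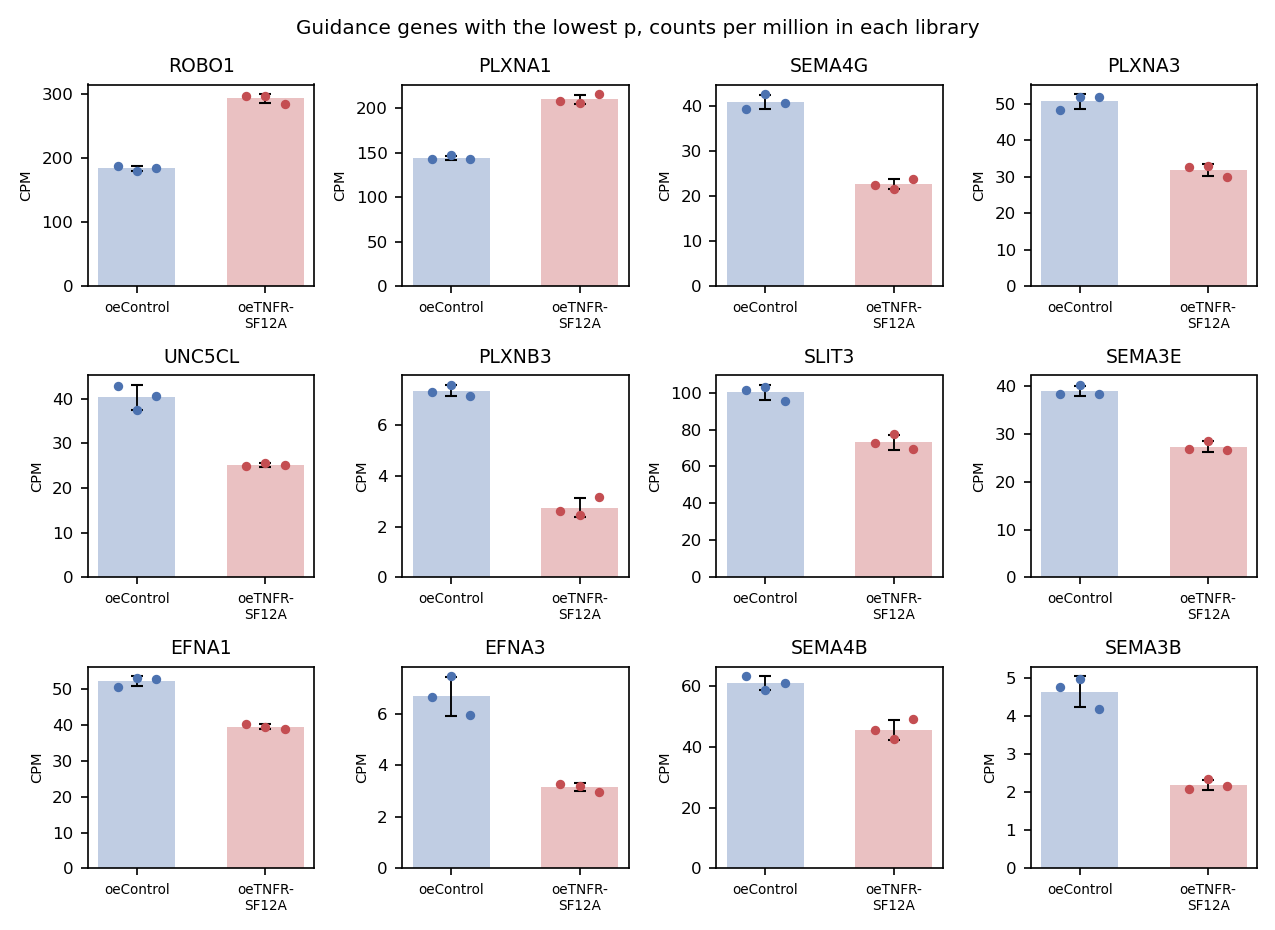
CPM (y axis, from 0) in each library for the 12 genes with the lowest p, with points for libraries, bars for the group mean and whiskers for 1 SD (n = 3). ROBO1 and PLXNA1 are higher in all 3 oeTNFRSF12A libraries and the other 10 are lower. Only called genes whose groups do not overlap were eligible, so the lack of overlap is a condition of the choice. It was found in 51.3% of all tested genes.

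Of 20 semaphorin genes 13 could be tested, of which 7 fell (53.8%, beside 21.1% of all genes), 1 rose (7.69%, beside 21.2%) and 5 were not called. In class 3, the secreted repellents, SEMA3A (7091 to 7159 counts in controls, 6910 to 7308 in oeTNFRSF12A libraries) and SEMA3C (4097 to 4382 and 4023 to 4752) were the highest members of the whole set per kilobase and were not called. Their log2 fold changes were -0.03 (95% interval -0.09 to 0.04) and 0.03 (interval -0.09 to 0.15). SEMA3C passed the threshold without oeTNFRSF12A replicate 3 (0.10, adjusted p = 0.0286) and was negative without oeTNFRSF12A replicate 1 (-0.03).

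SEMA3B, a secreted semaphorin known as a candidate tumour suppressor of the short arm of chromosome 3, had 86, 90 and 76 counts in the controls and 38, 43 and 40 in the oeTNFRSF12A libraries. Each oeTNFRSF12A library was well below each control, and the means differed 2.12-fold. SEMA3E, which acts on PLXND1 without a neuropilin, had 692, 728 and 699 counts against 494, 525 and 494. The log2 fold changes were -1.08 for SEMA3B (SE 0.15, adjusted p = 3.35e-06) and -0.51 for SEMA3E (SE 0.05, adjusted p = 3.96e-08). SEMA3D fell too on low counts, from 32, 27 and 31 to 21, 11 and 13 (-1.02, SE 0.26, adjusted p = 0.00299).

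Class 4 semaphorins are transmembrane proteins, several of which signal through class B plexins. SEMA4G had 709, 770 and 737 counts in the controls and 412, 395 and 442 in the oeTNFRSF12A libraries, 1.81-fold lower (log2 fold change -0.85, SE 0.06, adjusted p = 1.34e-11). Its exons share 1170 of 5253 bp with MRPL43 on the opposite strand, a gene that was not called (-0.0068, 95% interval -0.12 to 0.10). SEMA4B went from 1139, 1059 and 1108 counts to 833, 779 and 909 (-0.42, SE 0.05, adjusted p = 4.35e-07). Both genes separated the groups fully.

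SEMA4D, the PLXNB1 ligand also known as CD100 from lymphocytes, had 407, 399 and 446 counts in the controls and 318, 326 and 376 in the oeTNFRSF12A libraries (-0.32, SE 0.07, adjusted p = 8.4e-04). SEMA4C, which binds PLXNB2, was the one semaphorin that rose, from 556, 579 and 664 counts to 711, 730 and 764 (0.27, SE 0.06, adjusted p = 7e-04). Neither gene's groups overlapped in CPM. SEMA4F was not called at -0.14, although its CPM ranges did not overlap either, as for 51.3% of all tested genes. The summed class 4 level per kilobase was 41.8 ± 1.06 CPM in controls and 34.3 ± 1.67 CPM in oeTNFRSF12A libraries.

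SEMA6B, a transmembrane semaphorin, had 472, 482 and 441 counts against 400, 371 and 444. Its log2 fold change was -0.22 (SE 0.07, adjusted p = 0.00988), and the call was lost without oeTNFRSF12A replicate 2 (-0.17, adjusted p = 0.0752). SEMA6C (-0.08) and SEMA7A (-0.50, 10 to 19 counts per library, CPM ranges without overlap) were not called. SEMA3F, SEMA3G, SEMA4A, SEMA5A, SEMA5B, SEMA6A and SEMA6D had at most 13 counts in any library and were not tested.

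Most class 3 semaphorins need neuropilins, which lie outside the set and were expressed. NRP1 had 13442, 13244 and 13090 counts in the controls and 10609, 10325 and 10382 in the oeTNFRSF12A libraries (log2 fold change -0.37, adjusted p = 1.93e-10), and NRP2 was at -0.17 (adjusted p = 2.07e-04).

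Of 8 ephrins tested 3 fell and 5 were not called. The share called was 40% of 5 type A and 33.3% of 3 type B ephrins, beside 42.3% of all genes. All of the called ephrins fell, as did 21.1% of all genes. With so few genes, the results here are those of single genes. EFNA1, a membrane-anchored ligand of EPHA2 first cloned as a gene induced by TNF in endothelial cells (ENSG00000169242.11), had 913, 962 and 962 counts in the controls and 740, 724 and 722 in the oeTNFRSF12A libraries. It was 1.32-fold lower, with no overlap (log2 fold change -0.40, SE 0.05, adjusted p = 2.03e-07). EFNA3 (ENSG00000143590.13, plus strand of chromosome 1, 155078872 to 155087538) had 120, 135 and 108 counts against 60, 59 and 55. The fall was 2.12-fold (-1.08, SE 0.13, adjusted p = 3.83e-07). EFNA3 shares 853 of 1909 exon bases with the model AL691442.1 on the same strand; the EFNA4-EFNA3 readthrough had 0 to 3 counts per library.

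The promoter of EFNA3 is shown because it had the largest fall among the ephrins.
EFNA3 (chr1:155078587-155078886, plus strand): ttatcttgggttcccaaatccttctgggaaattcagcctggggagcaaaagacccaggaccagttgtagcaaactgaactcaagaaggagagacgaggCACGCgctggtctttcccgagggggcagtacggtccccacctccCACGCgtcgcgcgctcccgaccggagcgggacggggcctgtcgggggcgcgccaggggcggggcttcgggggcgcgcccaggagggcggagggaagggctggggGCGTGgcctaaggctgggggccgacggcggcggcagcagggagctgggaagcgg
It holds GCGTG or its reverse complement at -152, -108 and -4.

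EFNB2, a transmembrane ephrin that binds EPHB4 and marks arterial endothelium, had 1638, 1702 and 1602 counts in the controls and 1554, 1445 and 1355 in the oeTNFRSF12A libraries. The difference was small but without overlap (-0.21, SE 0.05, adjusted p = 9.4e-04). EFNB2 shares 1313 of 5019 exon bases with an antisense model, AL138689.2. The other ephrins EFNA2, EFNA4, EFNA5, EFNB1 and EFNB3 were not called, with log2 fold changes from -0.19 to 0.32. EFNB1 (0.32, 95% interval -7e-04 to 0.64) was called without oeControl replicate 3 (0.50, adjusted p = 0.0235). EFNA5, the most abundant of these 5, was at -0.02 (interval -0.11 to 0.08).

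Of 8 Eph receptors tested 1 rose, 3 fell and 4 were not called. The called genes were all among the 6 type A receptors tested. Of these 16.7% rose, beside 21.2% of all genes, and 50% fell, beside 21.1%. With so few genes, the results here are those of single genes. EPHA2, the main Eph receptor of many carcinomas, had 1797, 1818 and 1879 counts in the controls and 2079, 2029 and 2265 in the oeTNFRSF12A libraries and rose by 0.19 on the log2 scale (SE 0.04, adjusted p = 4.21e-04). EPHA2 per kilobase was 0.956, 0.918 and 0.949 times its ligand EFNA1 in the controls and 1.37, 1.36 and 1.52 times in the oeTNFRSF12A libraries. The ratio was higher in all 3 oeTNFRSF12A libraries than in any control. Since EPHA2 was called higher and EFNA1 lower, the ratio adds no separate support. Which gene stood higher in the controls depends on the length used, since by the union of all exons EPHA2 ranked 4 and EFNA1 ranked 6 there.

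The type A receptors EPHA5, EPHA6 and EPHA7, best known from the nervous system, fell. EPHA5 had 1259, 1272 and 1208 counts in the controls and 1115, 1163 and 1022 in the oeTNFRSF12A libraries (-0.21, SE 0.05, adjusted p = 0.0014). EPHA7 went from 662, 657 and 697 counts to 588, 534 and 586 (-0.26, SE 0.05, adjusted p = 3.87e-04), and EPHA6 from 40, 60 and 53 to 15, 28 and 36 (-0.98, SE 0.24, adjusted p = 0.00194). None of these 3 overlapped between groups. Of 10 neuronal markers 4 could be tested, and 5 were at 0 in all libraries. On the log2 scale TUBB3 (-0.08), MAP2 (-0.60) and SYP (-0.48) fell, and SNAP25 (0.0071) was not called. The summed level of the 10 was 247 to 254 CPM in controls and 225 to 236 CPM in oeTNFRSF12A libraries. TUBB3 alone held most of it, at a mean of 233 and 220 CPM. The part of these markers in the falls of EPHA5, EPHA6 and EPHA7 was not tested. EPHA4 was close to the threshold on 16 to 45 counts per library (-0.63, 95% interval -1.17 to -0.09, adjusted p = 0.0539). EPHA4 was called with upper-quartile factors, with no filter, under the replicate block and without oeControl replicate 2 or 3 or oeTNFRSF12A replicate 1, with adjusted p of 0.0219 to 0.0486. EPHA10 was not called (-0.37).

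The type B receptors that could be tested, EPHB2 and EPHB4, were not called. EPHB2, which positions cells along the intestinal crypt, had 1633 to 1773 counts in controls and 1766 to 1826 in oeTNFRSF12A libraries, a log2 fold change of 0.06 (95% interval -0.02 to 0.14). EPHB4 was at -0.05 (interval -0.14 to 0.04). EPHA1, EPHB3 and EPHB6 had 0 to 5 counts per library. EPHA3, EPHA8 and EPHB1 had none in any library, which allows up to 0.0274 CPM by a floor of 3 counts over the 6 libraries.

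NTN1, the founding netrin, rose. Its counts were 94, 88 and 74 in the controls and 138, 133 and 138 in the oeTNFRSF12A libraries, a clear gap between groups. The means were 4.72 ± 0.58 CPM and 7.41 ± 0.14 CPM (log2 fold change 0.65, SE 0.12, adjusted p = 8.02e-05). NTN4, a laminin-binding netrin, was far more abundant and was not called, with 1674 to 1739 counts in controls and 1630 to 1732 in oeTNFRSF12A libraries (-0.04, 95% interval -0.12 to 0.03). Per kilobase NTN4 stood at 29.5, 31.3 and 38.7 times NTN1 in controls and at 19.5, 20.7 and 20.7 times in oeTNFRSF12A libraries. NTN3 had 0 to 1 counts per library and NTN5 1 to 8.

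Netrin receptors had few counts or none. DCC, UNC5A and UNC5D had 0 counts in all 6 libraries, UNC5B had 0 to 1 and UNC5C 7 to 21. NEO1, which encodes neogenin, had 66 to 84 counts in the controls and 62 to 73 in the oeTNFRSF12A libraries. UNC5CL, which is related by its death domain and is known to activate NF-kB when overexpressed, was the expressed UNC5 symbol that fell: 774, 677 and 737 counts in the controls and 455, 472 and 468 in the oeTNFRSF12A libraries (-0.67, SE 0.06, adjusted p = 1.22e-09). UNC5CL shares 747 of 3136 exon bases on the same strand with OARD1, which was itself lower (-0.35, adjusted p = 2.04e-04). UNC50 had 641, 638 and 657 counts in the controls and 724, 693 and 745 in the oeTNFRSF12A libraries, higher without overlap (0.13, SE 0.05, adjusted p = 0.0349), a call lost with DESeq2 (adjusted p = 0.144), with upper-quartile factors and without any library but oeTNFRSF12A replicate 2 (adjusted p 0.0584 to 0.098).

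**Figure D3:**
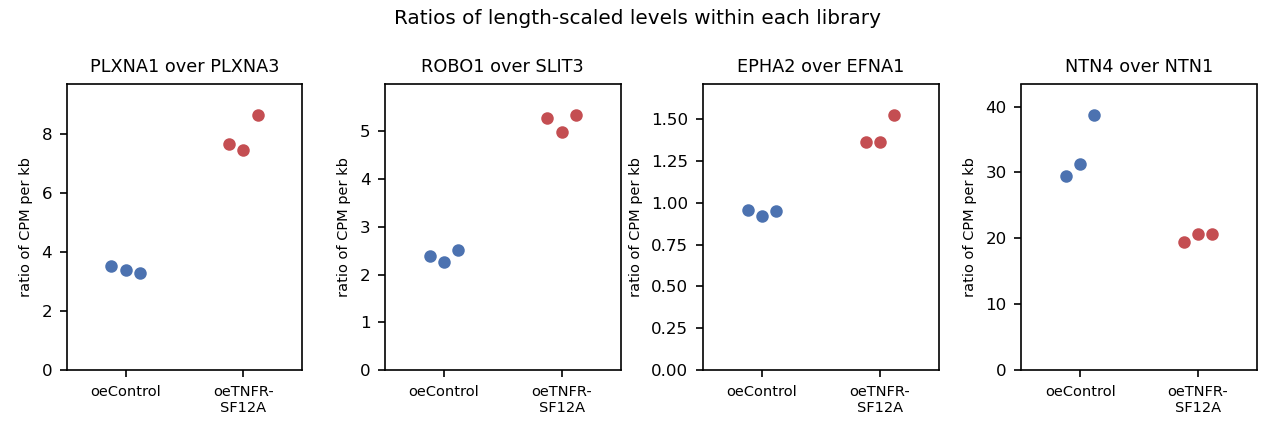
Ratio of length-scaled levels (y axis, CPM per kb over CPM per kb, from 0) for 4 pairs of genes, one point per library. In each panel the 3 oeControl and 3 oeTNFRSF12A points do not overlap, and EPHA2 over EFNA1 is below 1 in controls and above 1 in oeTNFRSF12A libraries on this length scale. The pairs were chosen with the calls known and each holds a called gene, so this separation adds no support beyond the single genes.

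On the scale of CPM per kilobase, the control cells expressed mainly SEMA3A (47.9 ± 0.15), SEMA3C (45.0 ± 1.58), PLXNB2 (36.3 ± 0.78), EFNA1 (27.2 ± 0.74) and NTN4 (25.98 ± 0.46). In the oeTNFRSF12A libraries SEMA3A (47.0 ± 1.62) and SEMA3C (46.1 ± 4.12) still came first and overlapped in their spread. ROBO1 moved from rank 7 to rank 3 (24.6 ± 0.51 to 39.1 ± 0.91) and EFNA1 from rank 4 to rank 8 (27.2 ± 0.74 to 20.6 ± 0.39). Summed over the Robo genes the level per kilobase was 26.3 ± 0.38 CPM in controls and 40.7 ± 0.71 CPM in oeTNFRSF12A libraries, and over the Slit genes 10.6 ± 0.36 and 7.77 ± 0.46 CPM. ROBO1 made up 93.7% of the Robo sum in controls and 96.1% in oeTNFRSF12A libraries. SLIT3 made up 97.0% of the Slit sum in both groups. These sums thus mostly restate ROBO1 and SLIT3 and show no change across either family. The type A ephrins summed to 51.3 ± 2.03 and 41.5 ± 0.83 CPM, and their type A receptors to 40.7 ± 0.39 and 41.7 ± 1.29 CPM. With the union of all exons as the length, control ranks changed by a few places, ROBO1 standing at 8 and EFNA1 at 6.

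**Figure D4:**
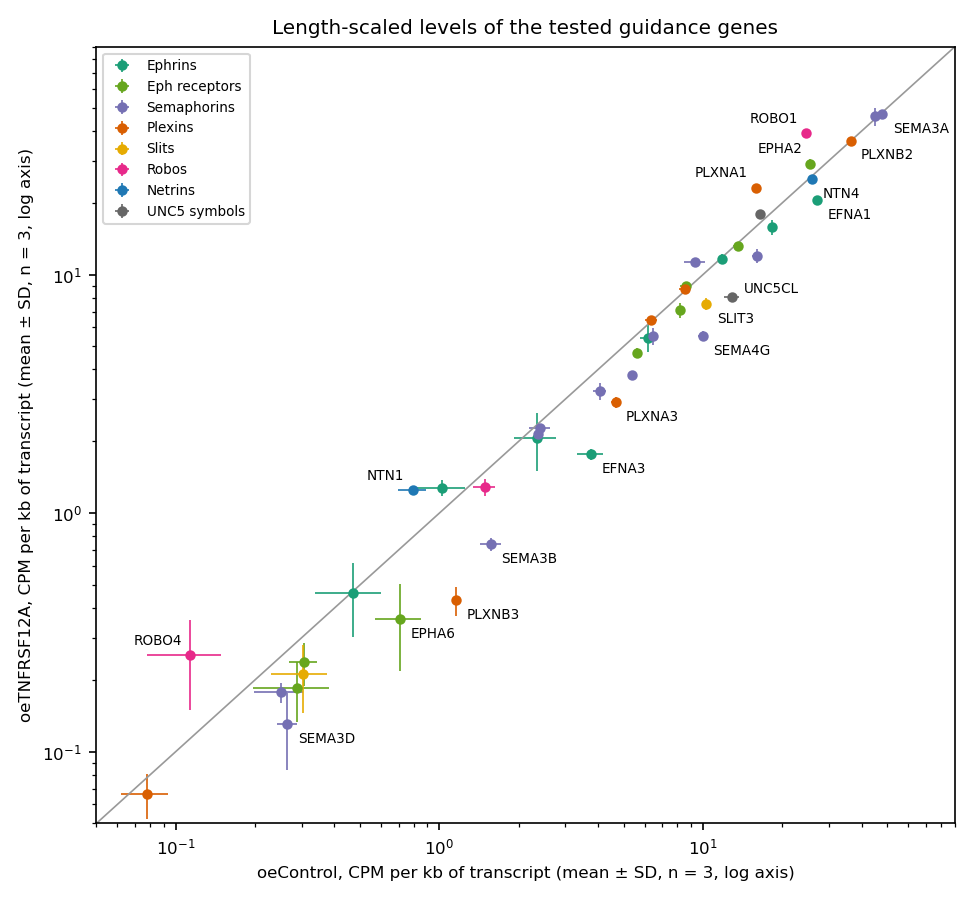
Length-scaled level of each tested gene in oeControl (x axis) and oeTNFRSF12A (y axis) libraries, in CPM per kb on log axes, as mean ± SD over 3 libraries, coloured by family. Points below the diagonal are lower in oeTNFRSF12A libraries, and PLXNB3, EFNA3 and SEMA3B lie farthest below it among genes above 1 CPM per kb in the controls.

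Across the set, the motifs marked in the printed promoters were counted. Positions count from 1 at the start site and give the first base of the match on the gene's strand. Promoters of 58 of the 68 genes were matched, with 1 window per gene. ACGTG, which also lies inside the E-box, occurred in 4 of 16 windows of genes that fell (PLXNB3, SEMA3B, SEMA3E and SEMA4D), 0 of 6 of genes that rose and 0 of 17 of tested genes that were not called, against 21.5% of 27058 genes. GCGTG occurred in 5 of 16, 4 of 6 and 10 of 17, against 36.3%. The E-box occurred in 2 of 16, 0 of 6 and 0 of 17 (7.34% of all genes), and the NF-kB consensus in 0 of 16, 1 of 6 and 2 of 17 (10.8%). In the 19 windows of genes not tested, ACGTG occurred in 5, GCGTG in 7, the E-box in 2 and the NF-kB consensus in 3. ACGTG was thus not confined to genes that fell, and over all 58 windows it occurred in 9. The AP-1 motif occurred in 0 of the 58 windows (7.74% of all genes). These matches are a description of letters, with no test.

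Downstream and partner genes were taken from lists of co-receptors, GTPase regulators, kinases and adaptors, cytoskeletal effectors and proteases. Of 136 tested genes outside the set 31 rose (22.8%) and 36 fell (26.5%), and 69 were not called. Over all tested genes these shares were 21.2% and 21.1%, so the partner genes as a whole were near the background. Among 17 tested co-receptors 3 rose (17.6%) and 7 fell (41.2%), NRP1 and ITGB1 (-0.19) with the lowest p among those that fell. FLRT2 (0.32), a ligand of UNC5 receptors, was among those that rose and FLRT3 (-0.32) among those that fell; these 2 lie outside the naming rule and were chosen after their values were seen.

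Of 39 GTPase regulators 12 rose (30.8%, beside 21.2% of all genes) and 9 fell (23.1%, beside 21.1%). VAV3, an exchange factor used by Eph receptors, fell from 196 ± 3.27 to 126 ± 0.10 CPM (log2 fold change -0.64, SE 0.03, adjusted p = 5.73e-14). SRGAP1, the GTPase activating protein that binds Robo receptors, fell by 0.27 on the log2 scale and FARP1, a partner of class A plexins, by 0.22. ARHGEF11, the exchange factor bound by class B plexins, rose by 0.24.

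Of 35 kinases and adaptors 6 rose and 9 fell, and the share called, 42.9%, was that of all genes (42.3%). DAPK1, a death-associated kinase used by UNC5B, fell from 195 ± 3.43 to 130.0 ± 3.88 CPM (-0.58, SE 0.03, adjusted p = 6.62e-13). PTK2, the focal adhesion kinase (-0.27), PTPN13, a phosphatase that binds type B ephrins (-0.30), and FYN, a Src family kinase that acts below plexins and Eph receptors (-0.55), fell as well. Of 30 cytoskeletal effectors 7 rose (23.3%) and 9 fell (30.0%), beside 21.2% and 21.1% of all genes, and those with the lowest p were MYO10 (-0.31), DPYSL4 (-0.70), ABLIM1 (-0.23) and ABLIM3 (-0.48). Of 15 proteases 3 rose and 2 fell, 33.3% called beside 42.3% of all genes. MMP2 fell by 0.67 on the log2 scale, and BMP1 rose by 0.28. PCSK7 rose by 0.15. MMP9 had 0, 1 and 0 counts in the controls and 18, 28 and 16 in the oeTNFRSF12A libraries. It passed the filter only through the latter, where it was high, so its call is no support for the count of proteases that rose. Without it, the proteases that rose were BMP1 and PCSK7.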

How the data were processed

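RNA was isolated with TRIzol and oligo(dT) beads, per the labels' protocols. Tools listed without roles are RSEM 1.3.1, Bowtie2 2.4.5 and HISAT2 2.2.1, with human build GRCh38 (hg38), per the submitters' processing notes; annotation and strand: not given in the sources used here. Values deposited by the authors, 1 per gene symbol and library, were treated as estimated counts; every value was whole, so rounding changed none. Of 19396 rows, 1 named no gene, held 0 counts and was left out.

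The analysis used edgeR 4.0.16 (R 4.3.3): filterByExpr (minimum count 10) kept 12758 genes, TMM factors were 0.988 to 1.01, and a robust quasi-likelihood fit with group as the only term was tested, with Benjamini-Hochberg adjustment and a threshold of 0.05. The SE of a log2 fold change is its size over the square root of F. The scripts were tested on simulated counts. The pairs of replicates gave 1.61 to 3.35 chi-square per gene within groups. The highest values were those of the pairs with oeTNFRSF12A replicate 3 (3.35 and 2.71), and the other pairs gave 1.61 to 1.88. All lay above sampling noise, so all 6 libraries were counted and none was set aside as a copy. This does not show that they were separate cultures.

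Gene lengths, positions and exon overlaps are from GENCODE release 29, promoters from RefSeq (GRCh38.p14). How reads shared by overlapping genes or paralogs were assigned is not stated, so such genes are uncertain. The floor of 3 counts covers counting error only. Alternatives were other scalings and filters, DESeq2 1.42.0, leaving out each library and the replicate number as a block. The genes, lists and tests were chosen with earlier results of these data known. Values per library are given for called genes whose CPM ranges do not overlap, and at most the 4 called partner genes per list with the lowest p are named, unless stated.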

Additional observations from a re-analysis of the deposited data

How the results depend on the processing

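Over 13 alternative fits, 21 of the 24 called guidance genes were called in every fit that tested them; the exceptions were SEMA6B, ROBO4 and UNC50. Guidance genes called higher numbered 5 to 7 and lower 15 to 18. DESeq2 called 23 guidance genes, all of them among the 24. Over all 12758 genes it called 1937 higher and 1989 lower, where the main fit called 2709 and 2693. Calls over all genes thus moved with the fit, so guidance counts per fit do not measure how unusual the set is. Without UNC50 and UNC5CL, chosen after seeing the data, 6 were higher and 16 lower in the main fit. These were 14.0% and 37.2% of the 43 tested, beside 21.2% and 21.1% of all genes. The median log2 fold change of the tested guidance genes moved from -0.20 to -0.14 (-0.1357) with no filter, which adds genes with few counts, and to -0.15 with a minimum count of 50, which tests 35 of the genes; leaving out single libraries gave -0.26 to -0.14.

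Direction reversed only for genes that were not called: EFNA5 with library totals alone (0.0017), PLXNB2 with upper-quartile factors (-0.0080) and with a minimum count of 50 (-0.0037), and, on leaving out single libraries, EFNA5 (-0.0456 to 0.0131), EFNB3 (-0.3421 to 0.2197), PLXNB1 (-0.0080 to 0.066), PLXNB2 (-0.0154 to 0.0218), PLXND1 (-0.0081 to 0.0609) and SEMA3C (-0.0329 to 0.0959). The cause was not tested.

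The replicate numbers are shared by number only: deviations of same-numbered libraries correlated at -0.02, 0.02 and 0.04. With the replicate block 7 guidance genes were higher and 18 lower, EPHA4 being added. Depth limits the genes with few counts: PLXNC1, at 7 to 12 counts per library, had a 95% interval of -0.98 to 0.54.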
